A study of Mus musculus with 6 samples.

Results

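The calcium buffers and neuronal calcium sensors of the cerebellum were read as 9 genes, chosen by symbol among the 24421 genes counted: Pvalb, Calb1, Calb2, Pcp4, Calm2, Calm3, Hpca, Hpcal1 and Ncs1. The tissue was mouse cerebellum of 1 year, microdissected as the Purkinje neuron layer plus the molecular layer, from 3 mice labelled Wild type (WT) and 3 labelled STIM1 Knockout (KO). STIM1 senses calcium in the endoplasmic reticulum and opens Orai channels of the plasma membrane when that store empties. The labels give no treatment, and they do not name the exons removed, the cells in which they are removed or the promoter that would restrict the deletion, so the KO group is described by its label alone. Although the labels call the samples Purkinje neurons, the dissected layers also hold interneurons and Bergmann glia. The comparison asks whether transcripts of the proteins that bind cytosolic calcium differ between the genotypes.

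Most of these proteins bind calcium through EF-hands, helix-loop-helix units whose acidic loop holds the ion. Parvalbumin, calbindin and calretinin act chiefly as buffers that take up calcium and shorten its transients, and Purkinje cells are known for the first and the second of these. Calmodulin and the neuronal calcium sensors (hippocalcin, its relative from Hpcal1, and NCS-1) change shape on binding calcium and pass the signal to kinases, phosphatases, channels and receptors. PCP4, also called PEP-19, has no EF-hand and instead binds calmodulin through an IQ motif and alters how calmodulin handles calcium.

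The coding sequences show what these genes share and whether short reads can tell them apart. A search of the translated GENCODE M21 transcripts (GRCm38) for a 12-residue EF-hand loop pattern found 2 loops in Pvalb, 4 in Calb1, 5 in Calb2, 4 each in Calm2 and Calm3, 3 each in Hpca, Hpcal1 and Ncs1, and 0 in Pcp4. Calm2 and Calm3 encode the same protein of 149 residues, with 100% identity, although their coding bases are 82.7% identical. The first loop of both genes is shown because it carries this difference, with the 7 of 36 bases that are not the same in both in capitals (coding bases 61 to 96 of each):
Calm2: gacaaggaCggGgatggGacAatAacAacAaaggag
Calm3: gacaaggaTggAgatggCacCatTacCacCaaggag
Both stretches translate to the same residues. Of the 50-base windows of Calm2 transcripts, the length of the reads, 9.72% also occur in annotated transcripts of another gene, against 2.52% for Calm3, and neither gene shares a window with the other.

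Loops of the buffers and sensors follow. The second loop of Pvalb, the fourth of Calb1, the second of Calb2 and the second of Hpca and Hpcal1 are shown as examples of the calcium sites, with the first and last codon, whose acidic residues hold the ion, in capitals:
Pvalb: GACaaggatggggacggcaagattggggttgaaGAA
Calb1: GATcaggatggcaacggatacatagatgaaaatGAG
Calb2: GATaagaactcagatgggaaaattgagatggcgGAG
Hpca: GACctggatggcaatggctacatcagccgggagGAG
Hpcal1: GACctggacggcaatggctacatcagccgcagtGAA
Hpca and Hpcal1, which belong to the same sensor family, have 86.1% of coding bases and 93.8% of 193 residues identical. No 50-base window of Pvalb, Calb1, Calb2 or Ncs1 transcripts occurs in another annotated gene, and 0.59% of Hpca and 6.5% of Hpcal1 windows do. Pcp4 shares 17.5% of its windows with Igsf5, an immunoglobulin superfamily gene whose annotation runs into Pcp4 on the same strand. Igsf5 had 0 counts in every library.

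The libraries were shallow in genes. They held 645994 to 764839 gene counts each, 1.155% to 1.232% of the uniquely aligned reads, and the 9 genes together took 533 to 773 counts per library. Stim1 drew 7, 21 and 3 counts from WT mice against 4, 3 and 2 from KO mice, an exact two-sided permutation p of 0.3 on CPM (gene counts scaled to a common library size with TMM), so it is a weak check of the labels. The strand that was counted is not given in the sources used here, and in the 4 libraries that lack Y-linked counts Xist held 79 to 139 counts while its antisense partner Tsix held 2987 to 3265. In WT replicate 3 and KO replicate 3, which have Y-linked counts, Tsix held 2 and 1 counts. Tsix was thus high only in the libraries without Y-linked counts. Counting on the strand opposite to each gene would give such values, and this was not tested. The values below, low counts and 0 included, may therefore largely not measure mRNA of the gene named. Of the 9 genes, 8 share no exon base with an annotated gene on the other strand, and Hpca shares 57 bases with Tmem54. Of the 18 Purkinje cell markers none was at 0 over all libraries, nor was any of the 12 granule cell or 11 astrocyte and Bergmann glia markers. The 4 haemoglobin genes were at 0 in every library, where reads that did not align uniquely were not counted.

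Parvalbumin was the buffer with the largest difference. Pvalb (chromosome 15, 78191114 to 78206400, minus strand, GRCm38) was counted 114, 139 and 148 times in the WT libraries, replicates 1 to 3, against 84, 87 and 75 times in the KO libraries. These are 169.9, 210.1 and 208.6 CPM in WT and 106.3, 130.1 and 119.3 CPM in KO. No KO library reached the level of any WT library; WT replicate 1 was the lowest of its group and KO replicate 2 the highest of its own. The KO mean was 60.4% of the WT mean, or -0.73 as a log2 fold change (standard error 0.17, 95% interval -1.09 to -0.38). It did not pass the test across genes, with an edgeR adjusted p of 0.917, and it ranked 2 of 5320 tested genes by p. Among the tested genes 0 passed at an adjusted p under 0.05, 0% of 5320, and the interval above is not corrected for that number of genes. At an unadjusted p under 0.05 edgeR had 246 genes, 4.62% of those tested (162 lower in KO, 3.05%, and 84 higher, 1.58%), and Pvalb was the 1 gene among the 5 tested here. At that level DESeq2 had 96 and limma-voom 234. A log2 fold change of -0.7 or lower was found in 2.42% of tested genes. KO lay wholly above WT in 4.83% of tested genes, wholly below WT in 5.85%, and in 1 of the 5 genes described here that passed the count filter, Pvalb. In bulk tissue, fewer cells of a type and less RNA per cell cannot be told apart.

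**Figure D1:**
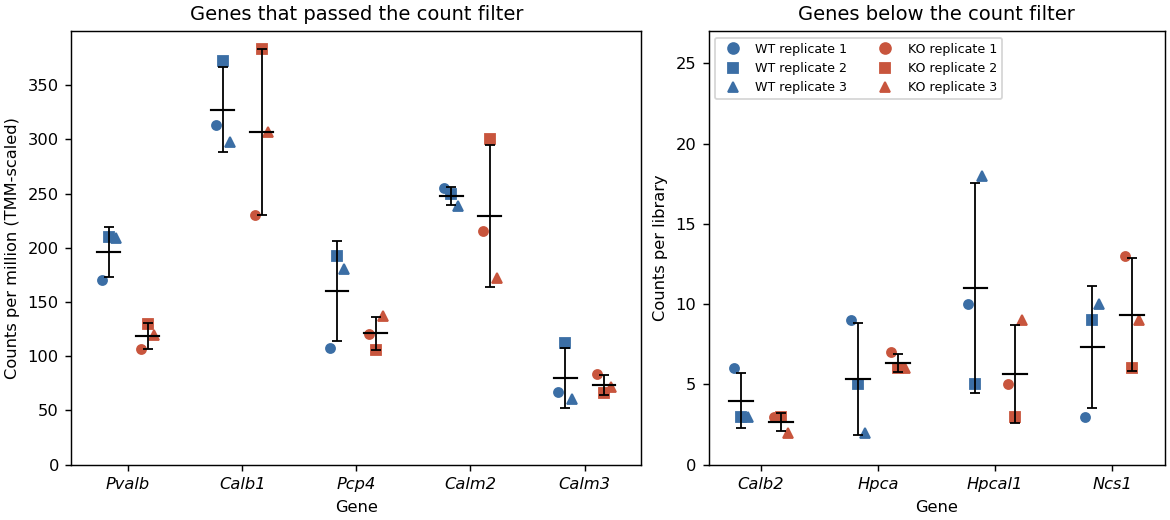
Level of each calcium buffer and sensor gene in each library. Left, CPM of the 5 genes that passed the count filter; right, counts of the 4 genes below it; points are libraries (blue WT, red KO, shape by replicate number), lines and bars are the mean and SD of 3. The Pvalb points of KO, 106.3 to 130.1 CPM, all lie below those of WT, 169.9 to 210.1 CPM, while the groups overlap for the other 8 genes.

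Calbindin, the most abundantly counted of the 9, showed no such separation. Calb1 (chromosome 4, 15881264 to 15908064, plus strand) reached 210, 246 and 211 counts in WT, compared with 182, 256 and 193 in KO. The highest and the lowest CPM of all 6 libraries were both in KO, at 382.9 in replicate 2 and 230.4 in replicate 1, so the WT libraries lay inside the KO range. The means were 327 ± 39.3 CPM in WT against 307 ± 76.3 CPM in KO (SD, n = 3 each). The log2 fold change was -0.10 with a 95% interval of -0.46 to 0.26 (edgeR adjusted p 0.997), an interval that spans 72.6% to 120% of the WT level. It was 0.07 without KO replicate 1 and 0 without WT replicate 2.

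Calretinin, a buffer of granule cells and unipolar brush cells rather than of Purkinje cells, was almost absent from the counts. Calb2 (chromosome 8, 110137502 to 110168210, minus strand) gave 6, 3 and 3 counts in the WT libraries against 3, 3 and 2 in the KO libraries, below the filter of the test. A single library of this depth cannot tell such values apart: the exact 95% Poisson interval of 3 counts runs from 0.619 to 8.77. A difference in Calb2 was neither shown nor excluded at these counts (exact two-sided permutation p = 0.2 on CPM, where 3 against 3 allow no p below 0.1).

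The ratio of Pvalb to Calb1 within a library does not depend on library size. Pvalb had 0.543, 0.565 and 0.701 counts per Calb1 count in WT replicates 1 to 3, and 0.462, 0.340 and 0.389 in KO replicates 1 to 3. All KO ratios lay below all WT ratios. On the log2 scale the mean ratio was -0.74 ± 0.20 (SD, n = 3) in WT and -1.35 ± 0.22 (SD, n = 3) in KO, a difference of -0.61 with a standard error of 0.17. The exact two-sided permutation test gave p = 0.1, the smallest that 3 against 3 allow. Pvalb enters this ratio too, so it repeats the separation of Pvalb against another buffer and is not separate evidence for it.

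Markers of Purkinje cells and molecular layer interneurons, cells that make parvalbumin, were read beside it, and their part in the Pvalb values was not tested. Of the 18 Purkinje cell markers 16 were tested, 11 with a log2 fold change below 0 and 5 above (median -0.28), and 0 passed the edgeR test. Pcp2, a Purkinje cell protein, lay wholly above WT in KO, at 81.6 CPM in WT against 97.0 CPM in KO. The closest libraries were WT replicate 1 at 89.42 CPM and KO replicate 2 at 89.74 CPM. Its log2 fold change was 0.24 (standard error 0.205), and 941 of its exon bases overlap Pet100 on the other strand. Over all tested genes 4.83% lay wholly above WT in KO and 5.85% wholly below. Itpr1, the IP3 receptor of the endoplasmic reticulum, and Gng13 lay wholly below WT in KO. Their log2 fold changes were -0.47 (standard error 0.14) and -0.44 (standard error 0.20). They were the 2 tested markers at an unadjusted edgeR p under 0.05, against 4.62% of all tested genes. The summed CPM of the 18 Purkinje cell markers was 3770 to 4474 in WT and 2928 to 3688 in KO, an exact permutation p of 0.1, with the KO mean at 82.3% of WT. Itpr1 had the highest level of this list, and without it the sums were 2161 to 2550 in WT and 1803 to 2363 in KO. These sums overlap (KO at 89.6% of WT, exact permutation p = 0.4). The 7 molecular layer interneuron markers summed to 257 to 273.4 CPM in WT and 203.8 to 240.8 CPM in KO (exact permutation p = 0.1). Of these 7 markers 4 were tested, 4 with a log2 fold change below 0 and 0 above (median -0.37). None passed the edgeR test, and 1 was at an unadjusted edgeR p under 0.05, lower in KO, against 3.05% of all tested genes. Sorcs3, the highest of the list, stood at 145 CPM in WT and 143.3 CPM in KO. Among 1000 Purkinje marker counts of the same library, Pvalb took 42.7, 47.0 and 55.3 counts in the WT libraries against 36.3, 35.3 and 34.7 in KO. The groups did not overlap on this scale, the KO mean was 73.3% of WT and the log2 difference was -0.44. The KO mean of Pvalb was 67.7% without Itpr1 in the sum and 70.7% against the interneuron markers, again without overlap. On each of these scales the exact permutation p was 0.1, the smallest that 3 against 3 allow. Homer3, at 496.6 CPM in WT and 503.1 CPM in KO, is part of the Purkinje sum. It shares 874 exon bases with Ddx49 on the other strand, so the sum may not measure Purkinje cell content alone. Calb1 had 78.7 to 83.1 such counts in WT and 78.7 to 104 in KO per 1000 Purkinje marker counts, with the KO mean at 113% of WT. These scales were chosen after the data were examined.

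**Figure D2:**
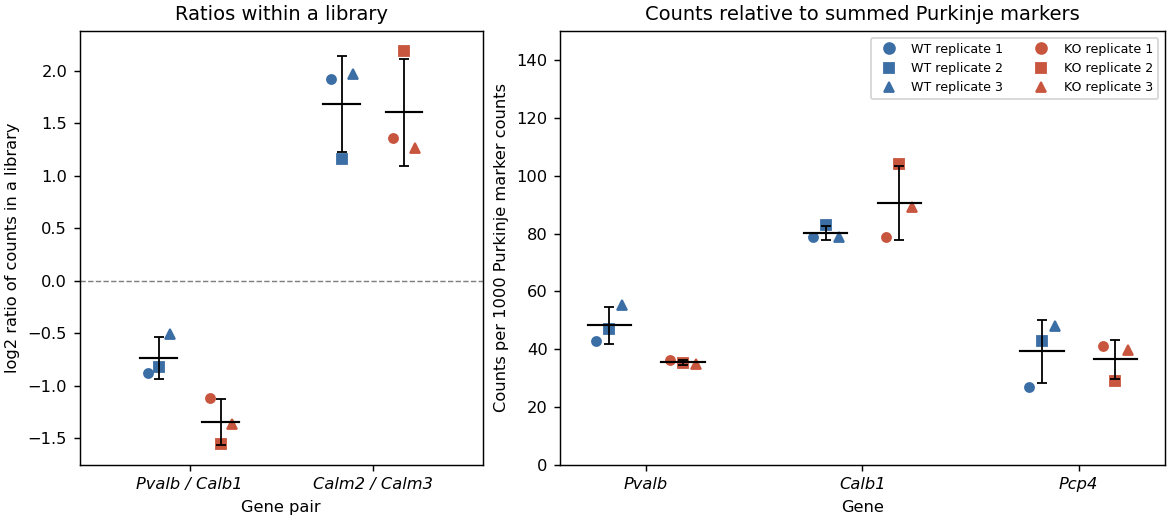
Ratios within each library. Left, log2 ratio of the counts of Pvalb to Calb1 and of Calm2 to Calm3; right, counts of Pvalb, Calb1 and Pcp4 per 1000 counts of the 18 Purkinje cell markers; points are libraries, lines and bars are the mean and SD of 3. For Pvalb to Calb1 the KO means and points lie lower, -1.35 against -0.74, and for Calm2 to Calm3 the groups overlap.

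Neither Calm2 nor Calm3, which encode calmodulin, differed beyond its spread. Calm2 (chromosome 17, 87433412 to 87446935, minus strand) drew 171, 165 and 169 counts from WT mice against 170, 201 and 108 from KO mice. The 3 WT libraries were close to each other, at 248 ± 8.50 CPM (SD, n = 3), whereas KO spread over 229 ± 65.5 CPM (SD, n = 3), with replicate 2 above and replicates 1 and 3 below all WT libraries. The log2 fold change was -0.11 with a 95% interval of -0.49 to 0.26 (edgeR adjusted p 0.997), and it was 0.05 without KO replicate 3. Calm3 (chromosome 7, 16915379 to 16924114, minus strand) reached 45, 74 and 43 counts in WT, compared with 66, 44 and 45 in KO. Replicate 2 was the highest WT library and replicate 1 the highest KO library, and the other 4 lay within 43 to 45 counts. Its log2 fold change was -0.11 with a 95% interval of -0.62 to 0.40 (edgeR adjusted p 0.997), and 0.21 without WT replicate 2.

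The balance of Calm2 and Calm3 varied from library to library in both genotypes. Calm2 held 3.80, 2.23 and 3.93 counts per Calm3 count in WT and 2.58, 4.57 and 2.40 in KO. The ratios overlapped, with a log2 difference of -0.08 (standard error 0.40, exact two-sided permutation p = 1).

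Pcp4, whose small protein binds calmodulin and is made by Purkinje cells, lay lower in KO on average with overlapping groups. Pcp4 (chromosome 16, 96467606 to 96525793, plus strand) gave 72, 127 and 128 counts in the WT libraries against 95, 71 and 86 in the KO libraries. WT replicate 1 lay among the KO libraries at 107.3 CPM, and WT replicates 2 and 3, at 192 and 180.4 CPM, stood above all the others. The log2 fold change was -0.41 with a 95% interval of -0.84 to 0.03 (edgeR adjusted p 0.987), and it ranged from -0.26 without WT replicate 2 to -0.63 without WT replicate 1. Per 1000 Purkinje marker counts the KO mean of Pcp4 was 93.1% of WT.

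The neuronal calcium sensors had few counts. Hippocalcin, known for its part in slow afterhyperpolarisation and in AMPA receptor removal in hippocampal neurons, was read at 9, 5 and 2 counts in WT against 7, 6 and 6 in KO (Hpca, chromosome 4, 129111570 to 129122036, minus strand). Tmem54, which overlaps Hpca on the plus strand, drew 89, 99 and 168 counts from WT mice against 134, 107 and 173 from KO mice, so the gene opposite held more counts than Hpca in each library. Hpcal1 (chromosome 12, 17690856 to 17791933, plus strand) reached 10, 5 and 18 counts in WT, compared with 5, 3 and 9 in KO, and within each genotype replicate 3 was the highest. Its means were 15.9 ± 8.95 CPM in WT against 8.38 ± 5.23 CPM in KO (SD, n = 3 each), with overlapping libraries. NCS-1, which regulates calcium channels and a phosphatidylinositol kinase, was read at 3, 9 and 10 counts in WT against 13, 6 and 9 in KO (Ncs1, chromosome 2, 31245823 to 31295989, plus strand). None of the 3 passed the count filter, and their exact two-sided permutation p values on CPM were 0.7 for Hpca, 0.2 for Hpcal1 and 0.5 for Ncs1. With the filter lifted their edgeR log2 fold changes were 0.23, -0.94 and 0.32, and the lowest of the 3 adjusted p was 0.904, for Hpcal1. Hpcal1 also passed the filter in 4 of the 6 fits that left out 1 library, where its log2 fold change ranged from -1.53 without KO replicate 3 to -0.69 without KO replicate 2 (edgeR adjusted p 0.947 to 0.988). Differences of this size in the sensors were neither called nor excluded at these counts.

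Levels can be compared between genes only per length, taken here as CPM per kilobase of merged exon. In WT the highest levels on this scale were those of Pvalb at 188 ± 21.9 (SD, n = 3), Calm2 at 169 ± 5.79 and Pcp4 at 156 ± 44.7, and neighbours in this order overlapped between libraries. Calb1 followed at 67.6 ± 8.10 and Calm3 at 33.0 ± 11.5, each below the lowest library of the gene before it. Calb1 is the longest of the 5 with 4.846 kb of exon, against 1.041 kb for Pvalb, so its higher counts went with a lower level per kilobase. The 4 genes under the filter lay lower still, from 9.41 for Hpcal1 to 2.30 for Ncs1, and neighbours among them overlapped. In KO the order was Calm2 at 156, Pcp4 at 118 and Pvalb at 114, again with overlapping neighbours, then Calb1 at 63.3 and Calm3 at 30.4. Pvalb thus stood first by its mean in WT and behind Calm2 and Pcp4 in KO. With the counted strand not known, this order of counts may not be the order of the mRNAs.

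**Figure D3:**
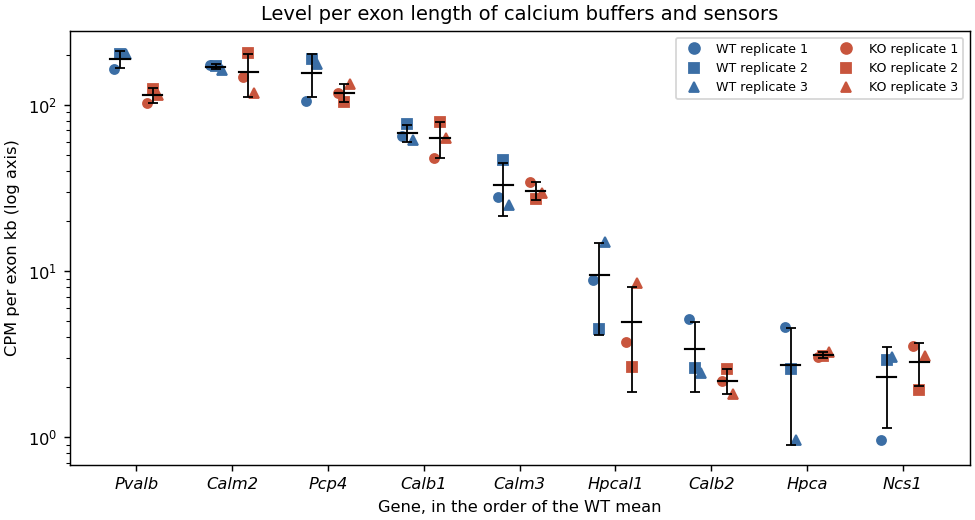
CPM per kilobase of merged exon for the 9 calcium buffer and sensor genes, on a log axis, in the order of the WT mean. Points are libraries (blue WT, red KO), lines and bars are the mean and SD of 3; Pvalb, Calm2 and Pcp4 lead, and Hpcal1, Calb2, Hpca and Ncs1 lie below 20 on this scale.

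All 5 tested genes had a log2 fold change below 0, from -0.73 for Pvalb to -0.10 for Calb1, with a median of -0.11. Over all tested genes 49.7% lay below 0 and the median was 0.002. Calb1, Calm2 and Calm3 changed sign when 1 library was left out, so the direction of Pvalb and Pcp4 alone held in each of the 14 alternative settings. Across those settings Pvalb ranged from -0.83 to -0.66 and its adjusted p from 0.369 to 1, so it passed in none.

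**Figure D4:**
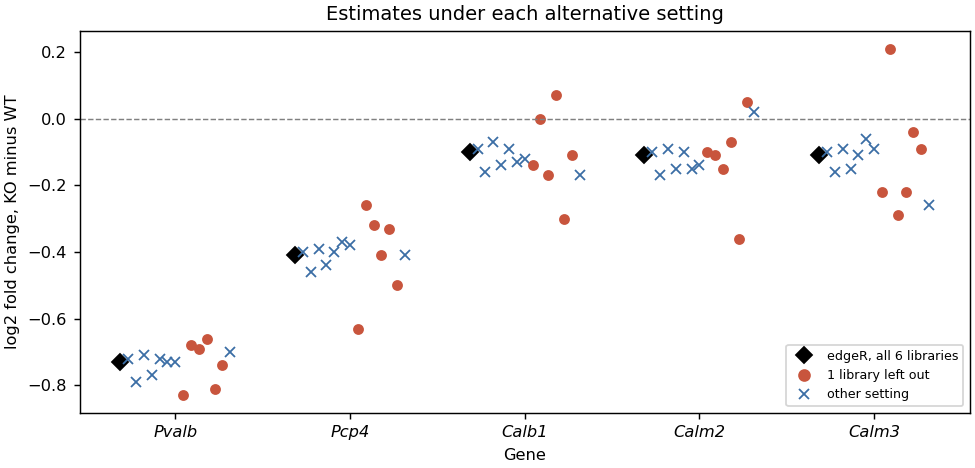
Log2 fold change, KO minus WT, of the 5 tested genes in each setting. Diamonds are edgeR on all 6 libraries, circles leave out 1 library, crosses are other normalisations, filters, tools or the block; Pvalb stays between -0.83 and -0.66, while Calb1, Calm2 and Calm3 lie on both sides of 0.

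Related genes were read from 4 lists. Of 28 other cytosolic EF-hand genes, 7 passed the filter, 4 with a log2 fold change below 0 and 3 above, a median of -0.02, and 0 passed the test (0 also at an unadjusted p under 0.05). The most abundantly counted were Necab1, an EF-hand protein of neurons, at a log2 fold change of 0.13 (standard error 0.18), and Kcnip4, which binds Kv4 potassium channels, at -0.02 (standard error 0.20). Genes annotated on the other strand overlap 410 exon bases of Necab1 and 267 of Kcnip4, so their counts may not all be their own mRNA. Vsnl1, Ncald and Hpcal4, close relatives of hippocalcin, had at most 9 counts in any library, and Rcvrn, Scgn and Ocm (recoverin, secretagogin and oncomodulin) had 0, which allows up to 3 counts or 3.92 to 4.64 CPM.

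S100 proteins are EF-hand proteins of other cells, S100b above all of astrocytes and Bergmann glia. Of 9 listed, 2 passed the filter and both lay below 0. S100b had a mean of 222 CPM in WT against 133 CPM in KO, a log2 fold change of -0.74 (standard error 0.23, edgeR adjusted p 0.917), and S100a11 lay at -0.17 (standard error 0.23). S100b did not overlap between the groups, as Pvalb and 10.7% of all tested genes did not. It spread from 74.8 CPM in KO replicate 2 to 179.8 CPM in KO replicate 3, against 199.7 to 235.4 CPM in WT. The 11 astrocyte and Bergmann glia markers summed to 862.6 to 1115 CPM in WT and 744.8 to 897.2 CPM in KO, which overlap. Of these markers 10 were tested, 8 with a log2 fold change below 0 and 2 above (median -0.29). At an unadjusted edgeR p under 0.05 there were 2, both lower in KO, against 3.05% of all tested genes, and 0 passed the adjusted test. The part of these markers in the S100b values was not tested. Of 9 calmodulin-binding IQ genes 3 passed the filter, 1 below and 2 above 0, with Invs, an inversin with IQ motifs, at -0.06 and Gap43, a growth cone protein that binds calmodulin, at 0.27. Pcp4l1, the closest relative of Pcp4, gave 9, 16 and 21 counts in the WT libraries against 8, 10 and 5 in the KO libraries, below the filter. Of 7 EF-hand proteins of the secretory lumen 3 passed it, all below 0, with Sdf4 at -0.22 and Calu, calumenin, at -0.22. Genes on the other strand also overlap 226 exon bases of Invs and 397 of Calu. In each of the 4 lists 0 genes passed the edgeR test.

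**Figure D5:**
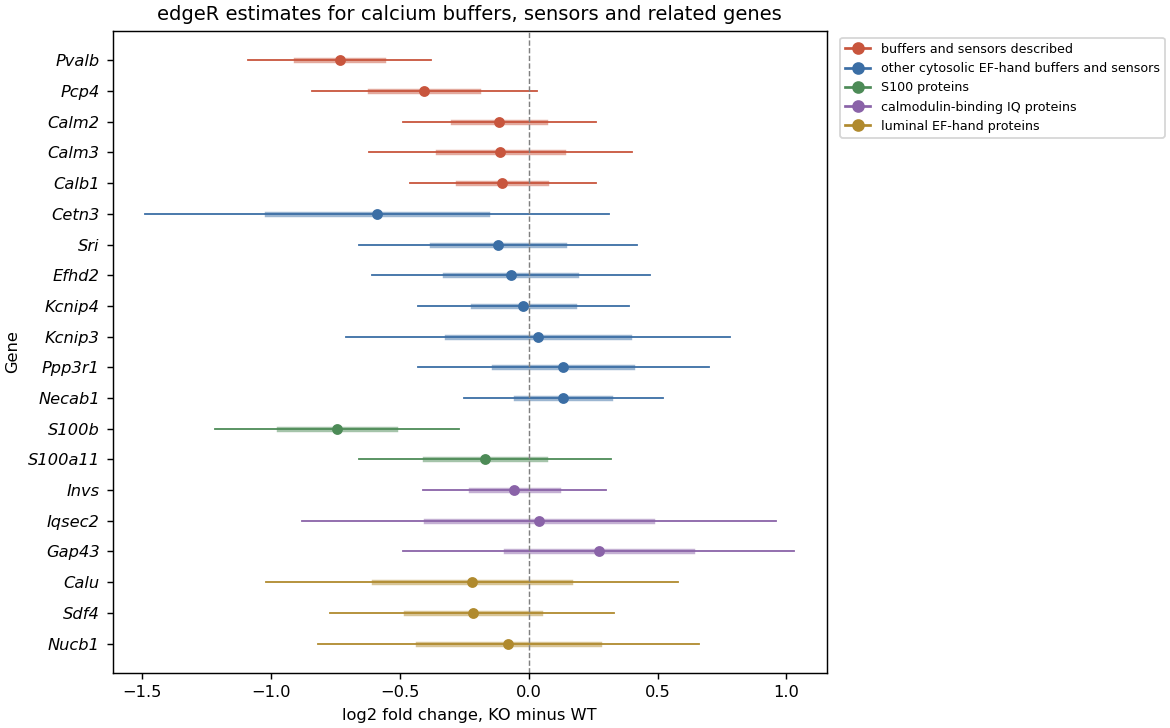
edgeR log2 fold changes, KO minus WT, of the tested calcium buffers and sensors and of the tested genes of the 4 related lists. Points are estimates, thick bars 1 standard error, thin bars 95% intervals not adjusted for the number of genes; the intervals of Pvalb and S100b lie below 0, and none of these genes passed the adjusted test.

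The genes most like Pvalb over the 6 libraries were sought among 1695 other tested genes with a mean count of at least 50, by the root mean square difference of log2 CPM after centring each gene. The 3 closest were Gng13, a G protein gamma subunit that is also one of the 18 Purkinje cell markers, at 0.174, Atp5b, the beta subunit of mitochondrial ATP synthase, at 0.175, and Eif5, a translation initiation factor, at 0.175, where the median gene stood at 0.437. Their log2 fold changes were -0.44, -0.48 and -0.51, a direction that the choice by likeness to Pvalb over the same libraries fixes. Gng13 shares 399 exon bases with Chtf18 on the other strand, a gene with 2837 to 5337 counts per library, so with the counted strand not known its values may not all be Gng13 mRNA.

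In the authors' deposited DESeq table Pvalb had normalised means of 131 in WT and 80.7 in KO, a fold of 0.616 in KO over WT. The authors' deposited edgeR table listed it at 0.71 as the log2 of WT over KO. By p, Pvalb ranked 4 among the genes of the authors' deposited DESeq table and 7 among those of their deposited edgeR table. The next of the 9 genes, Hpcal1, ranked 1028 in the deposited edgeR table. With Benjamini-Hochberg adjustment of the deposited p-values, Pvalb reached an adjusted p under 0.05 in neither table. Both tables describe the same 6 libraries, so they are not separate evidence for Pvalb. Calb1 had a fold of 0.956 in KO over WT in the authors' deposited DESeq table. Hpcal1 had the lowest fold of the 9 in the authors' deposited DESeq table, 0.534, on normalised means of 10.7 and 5.69.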

How the data were processed

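RNA of 3 WT and 3 KO mice of 1 year came from 2 microdissected layers, Purkinje neuron and molecular, and was sequenced. Per the labels' protocols, TRIzol RNA was prepared with a TruSeq mRNA kit and sequenced from 1 end for 50 bases. The submitters' processing notes name GRCm38 (mm10) and the tools edgeR, DESeq, TopHat and HTSeq 0.9.1. The sources used here give neither the strand setting nor the annotation. The deposited count files hold whole-number counts per gene made by the authors, and 5 HTSeq rows that name no gene (98.76% to 98.84% of uniquely aligned reads were assigned to no gene) were left out. The deposited DESeq table holds a normalised mean signal, a ratio (fold) and a p-value, and the deposited edgeR table a log2 ratio and a p-value; both were used for description.

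Differences were tested with edgeR 4.0.16 (R 4.3.3; glmQLFit, glmQLFTest, TMM, filterByExpr with a minimum count of 10, no covariate) over 5320 genes, with Benjamini-Hochberg adjustment. Standard errors follow from the quasi-likelihood F statistic, and CPM use TMM-scaled library sizes. Poisson intervals and limits for 0 counts cover counting error only. Single values used exact permutation tests. The series text calls the samples biological replicates, and replicates differed by more than counting noise (chi-square per degree of freedom at least 3.17). The tests were checked on simulated counts. The 9 genes and all lists were chosen with earlier results of these data known, so they are not independent of them. Named related genes are those at an unadjusted p under 0.05, plus the 2 tested genes of highest count per list (1 gene of the lists is not reported here); Vsnl1, Ncald, Hpcal4, Rcvrn, Scgn, Ocm, Pcp4l1, Tmem54, Igsf5, Chtf18 and Pcp2 were named after their values were seen. Positions, exon overlaps and coding sequences come from GENCODE M21 (95.5% of symbols matched). Alternatives were DESeq2 1.42.0, limma-voom (limma 3.58.1), other normalisation and filters, a replicate block and leaving out libraries.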

Additional observations from a re-analysis of the deposited data

How the results depend on the processing

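The number of genes passing an adjusted p under 0.05 was 0 with RLE normalisation, all uniquely aligned reads as library size, a mean count of at least 50, DESeq2 and limma-voom. It was 6 with no filter on low counts, 1 without the libraries with Y-linked counts, and from 0 to 1 when each library was left out (1 without WT replicate 3, Erdr1), and none of these genes is a buffer or sensor described here; the cause was not tested. Genes at an unadjusted p under 0.05 numbered 246, against 638 with no filter, 64 with the mean count of at least 50 and 96 with DESeq2. The share of them higher in KO was 34.1%, and 17.5% with all uniquely aligned reads as library size. Calb1 had a log2 fold change of 0 without WT replicate 2, 0.07 without KO replicate 1, 0.17 per summed Purkinje markers, 0.05 without Itpr1 in that sum and 0.12 per summed interneuron markers. Calm2 had 0.05 without KO replicate 3 and 0.02 without the libraries with Y-linked counts, and Calm3 0.21 without WT replicate 2. Leaving out each library in turn, Calb1 ranged from -0.3 to 0.07, Calm2 from -0.36 to 0.05 and Calm3 from -0.29 to 0.21. The log2 difference in the Pvalb to Calb1 ratio was -0.72 to -0.49 leaving out each library, and that in the Calm2 to Calm3 ratio -0.37 to 0.09 (0.24 without the libraries with Y-linked counts). With the replicate block edgeR called 0 genes and Pvalb was at -0.73 (adjusted p 0.906); deviations of samples with the same number correlated at 0.143, 0.079 and 0.122, each sample most with its own number, and the labels name no pairing. With 2 libraries in 1 group the spread is shared with the other. Depth limits Calb2, Hpca, Hpcal1 and Ncs1, which had at most 18 counts in any library.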

Other observations

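Markers of other cells of the cerebellum were read beside the buffers. Granule cell markers summed to 451.6 to 548.3 CPM in WT and 481.6 to 562 CPM in KO, which overlap (exact two-sided permutation p = 0.4), with 4 tested genes below and 5 above 0. Zic1, a transcription factor of granule cells, had the highest count of this list, with a log2 fold change of 0.13 (standard error 0.18). Oligodendrocyte markers summed to 105.8 to 126.8 CPM in WT and 100.2 to 130.4 CPM in KO. The 4 haemoglobin genes were at 0 in all 6 libraries.

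Calm2 differed in spread between the genotypes, at a coefficient of variation of 3.43% over the WT libraries and 28.6% over the KO libraries, where counting alone gives 7.81% at its mean count of 164. Pcp4 and Calm3 had the larger spread in WT, at 28.7% and 35.0% against 12.7% and 12.3% in KO. A difference in spread was not tested with 3 libraries per genotype.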
